A study of Mus musculus with 54 samples.

Results

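The genes described here are 5 transcripts for proteins that the male accessory glands secrete into seminal fluid. They are Pbsn, Msmb, Tgm4, Defb50 and Svs2, chosen by name as a set of prostate and accessory gland secretory genes. The choice was made with earlier results of these data known. All 5 were found among the 16772 genes of the deposited table.

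Secretory luminal cells of the prostate, and the epithelium of the seminal vesicle for Svs2, make these proteins in response to androgens, and their transcripts are classical readouts of differentiated secretory function. Pbsn encodes probasin, a lipocalin whose promoter is widely used to drive Cre in mouse prostate epithelium. Msmb encodes beta-microseminoprotein, a small abundant seminal protein, and Defb50 encodes a beta-defensin, one of a family of antimicrobial peptides. Tgm4 encodes the prostate transglutaminase that crosslinks seminal proteins into the copulatory plug. Svs2 encodes a seminal vesicle secretory protein that is a main substrate for that crosslinking, and it serves here as the member whose main source is a neighbouring gland.

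Bulk RNA sequencing was performed on mouse prostate tumour tissue, with 54 libraries from 48 animals in 11 groups. At 12 weeks of age 4 intact mice each were DKO, DKO_EE or DKO_EP, and the submitters describe the last pair as carrying Ezh2 deletions. Ezh2 is the histone H3 methyltransferase of the Polycomb system. Intact endstage tumours came from 3 DKO mice, 8 DKO_EE mice and 3 DKO_EP mice aged 28 to 52 weeks. Endstage tumours after castration at 12 weeks came from 4 DKO mice, 5 DKO_EE mice and 5 DKO_EP mice aged 34 to 99 weeks, and castrated TKO mice aged 15 to 19 weeks received vehicle (4 mice) or the Ezh2 inhibitor CPI1688 (4 mice). The labels do not spell out the alleles behind DKO, TKO, EE and EP or the promoter that drives recombination. All values are log2 of a normalized count plus 1 as deposited, so a value of 0 means that no read was counted.

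Facts about the libraries bear on these genes. A library held 3687048 to 9741808 reads. At 12 weeks the Ezh2 transcript averaged 8.40 ± 0.22 in DKO, 8.22 ± 0.36 in DKO_EP and 7.60 ± 0.20 in DKO_EE (log2, SD, n = 4 each), and neither the difference of DKO_EP (-0.18) nor that of DKO_EE (-0.80) from DKO passed the limma test (adjusted p = 0.991 and 0.975). The skeletal muscle gene Ttn took more than 1% of the reads in 4 of the 12 animals at 12 weeks, namely DKO animals 1 and 4 and DKO_EP animals 2 and 4. Lars2, a mitochondrial leucyl-tRNA synthetase gene, took 14.2% to 21.6% of the reads in all 5 intact DKO_EP endstage libraries and more than 10% in 5 of the 12 intact DKO_EE endstage libraries (up to 35.3%), against at most 0.036% in the groups outside intact DKO_EE and DKO_EP endstage. Svs2 itself took 6.51% of the reads of DKO_EP animal 2 and 1.43% of the reads of DKO_EE animal 4. The identifiers of DKO animals 1 to 3 carry other letters than those of DKO animal 4 and of the 8 DKO_EE and DKO_EP animals, so identifier letters and genotype largely coincide at this age. Markers of luminal epithelium were present throughout the 12-week animals, with a mean log2 value over 16 such genes of 10.70 to 11.38. In bulk tissue, fewer secretory cells and less transcript per cell cannot be told apart.

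In the GENCODE annotation of GRCm38, Pbsn lies at chrX:77837901-77853623 on the minus strand. Msmb lies at chr14:32142023-32158370 on the plus strand and Tgm4 at chr9:123034726-123067561 on the plus strand. Defb50 lies at chr8:21823539-21831296 on the plus strand and Svs2 at chr2:164235929-164238466 on the minus strand. All 5 are annotated as protein-coding genes on 5 different chromosomes. The RefSeq promoter table for GRCm38.p6 holds 3 of the 5, Pbsn, Tgm4 and Svs2. In the 250 bases before each RefSeq start, both strands were searched for the androgen-response half-site AGAACA, which reads TGTTCT on the opposite strand. The coding strand was searched for the letters TATAAA. The half-site occurs in 16.1% and TATAAA in 7.59% of the 32851 promoter windows of that length. Pbsn holds 1 half-site, 95 to 90 bases before its RefSeq start, while no half-site was found in these windows of Tgm4 and Svs2. TATAAA lies 59 to 54 bases before the Pbsn start (in a GENCODE exon, as does the half-site), 30 to 25 bases before the Tgm4 start, and at a pair of places before the Svs2 start, 236 to 231 and 205 to 200 bases upstream. None of these matches overlaps another. The stretches show the half-site of Pbsn and the TATAAA matches of Tgm4 and Svs2 in capitals, on the coding strand and 5′ to 3′, and are printed because these genes differ from each other over the same animals. The Pbsn stretch, chrX:77853578-77853607, is limited to the half-site and its flanks since GENCODE places its start 123 bases further upstream. The Tgm4 stretch, chr9:123034491-123034725, and the Svs2 stretch, chr2:164238467-164238591, end just before the more upstream of their RefSeq and GENCODE starts. A match of letters is a description and not a site.
Pbsn half-site: caactgggatgcAGAACActgctcacgcca
Tgm4 upstream: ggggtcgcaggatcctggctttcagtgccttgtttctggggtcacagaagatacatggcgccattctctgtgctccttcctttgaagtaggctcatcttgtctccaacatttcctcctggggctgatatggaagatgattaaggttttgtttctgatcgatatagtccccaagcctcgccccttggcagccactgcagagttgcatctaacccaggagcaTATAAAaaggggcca
Svs2 upstream: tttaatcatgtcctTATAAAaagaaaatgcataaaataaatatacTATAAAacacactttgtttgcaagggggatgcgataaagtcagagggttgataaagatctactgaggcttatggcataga

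At 12 weeks the 4 genes of prostate secretion, Pbsn, Msmb, Tgm4 and Defb50, had their highest group means in DKO, their lowest in DKO_EE, and values spread over most of the range in DKO_EP. Svs2 had its lowest group mean in DKO and its highest values in single DKO_EE and DKO_EP animals. None of these differences passed the test across all genes, and the animals of one group differed widely from each other. The comparison asks how the genotypes described with Ezh2 deletions differ from DKO at an early stage, before castration.

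Pbsn had log2 values of 7.52, 7.95, 7.78 and 3.37 in DKO animals 1 to 4. In DKO_EE animals 1 to 4 the Pbsn values were 1.03, 0.00, 2.20 and 0.00, and in DKO_EP animals 1 to 4 they were 5.35, 6.36, 0.00 and 4.43. Every DKO_EE animal lay below every DKO animal, and DKO_EP overlapped both. Over the libraries of a group, Pbsn had 563 reads in DKO, 5 in DKO_EE and 128 in DKO_EP, which is 20.4, 0.149 and 4.07 RPM (reads per 1000000 reads of the pooled libraries).

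Msmb followed the same animals. Its log2 values were 7.35, 7.33, 7.80 and 3.90 in DKO, 2.38, 0.00, 2.87 and 0.00 in DKO_EE, and 6.86, 5.12, 0.00 and 3.50 in DKO_EP. The groups DKO and DKO_EE did not overlap, and DKO_EP animal 3 had no read of either gene. The reads of Msmb numbered 492 in DKO, 11 in DKO_EE and 132 in DKO_EP over each group's 4 libraries.

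Defb50, the beta-defensin, had log2 values of 8.82, 9.54, 8.91 and 7.26 in DKO, 5.68, 2.07, 6.02 and 0.88 in DKO_EE, and 9.14, 7.57, 0.00 and 6.21 in DKO_EP. DKO and DKO_EE again did not overlap, although DKO_EE animals 1 and 3 stood well above animals 2 and 4, and over the group Defb50 had 1540 reads in DKO and 123 in DKO_EE. DKO_EP covered the range from no read to the level of the highest DKO animals.

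Tgm4 had a less ordered pattern. Its log2 values were 4.53, 7.96, 6.47 and 1.74 in DKO, 1.03, 0.00, 3.04 and 0.88 in DKO_EE, and 2.61, 8.12, 1.64 and 6.31 in DKO_EP. DKO animal 4 lay inside the DKO_EE range, and the highest of the 12 animals was DKO_EP animal 2. Tgm4 therefore had close means in DKO (5.17 ± 2.69) and DKO_EP (4.67 ± 3.06) and a low mean in DKO_EE (1.24 ± 1.28; SD, n = 4 each).

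**Figure D1:**
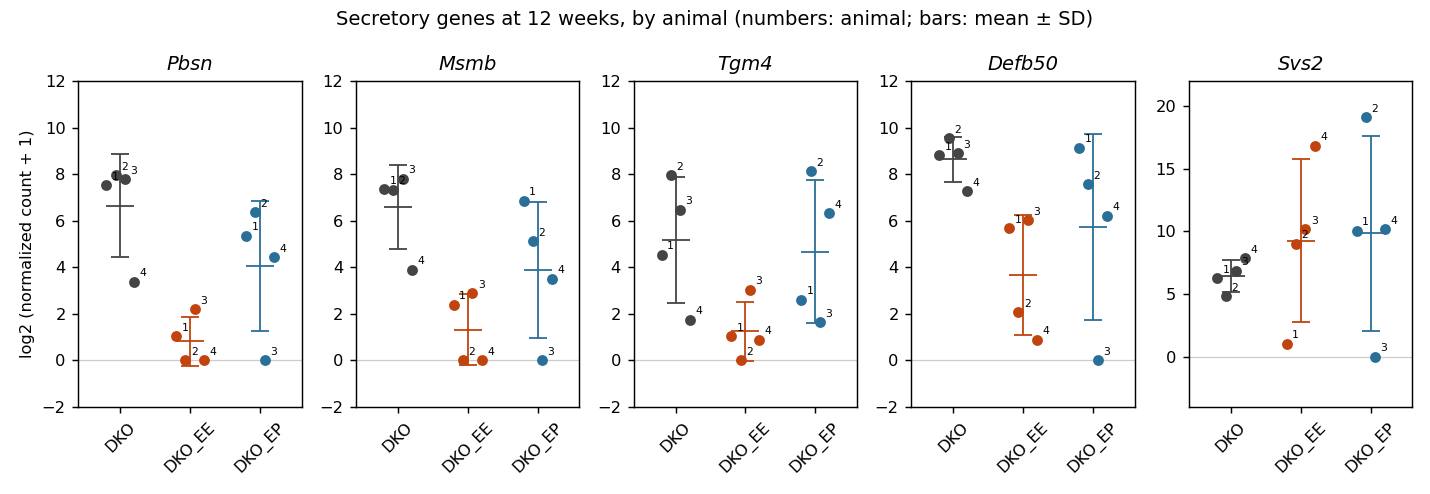
Log2 normalized counts of the 5 secretory genes in each of the 12 animals at 12 weeks, grouped by genotype on the x axis, with the animal number beside each point and bars for the mean ± SD. Pbsn, Msmb and Defb50 do not overlap between DKO and DKO_EE, DKO animal 4 is the lowest DKO animal for 4 genes, and Svs2 reaches 19.12 in DKO_EP animal 2.

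The fit at 12 weeks called 0 of 16626 genes (0%) between DKO_EE and DKO at a Benjamini-Hochberg adjusted p under 0.05 by limma, and so 0 of the 5 members. Limma-voom on the recovered reads also called 0 genes. At an unadjusted p under 0.05 there were 796 genes, 4 members among them. The log2 fold change of DKO_EE against DKO was -5.84 for Pbsn (SE 1.35; limma p = 0.00107, adjusted p = 0.975), on the scale of log2 of the count plus 1, which understates changes of low values. By p Pbsn stood in place 12 of the 16626 genes and Msmb in place 31. Msmb differed by -5.28 (SE 1.37; limma p = 0.00239), Defb50 by -4.97 (SE 1.75; limma p = 0.0152) and Tgm4 by -3.94 (SE 1.55; limma p = 0.0264), each with an adjusted p of 0.975. The median over the 5 members was -4.97 against 0.01 over all genes tested. Every DKO_EE animal lay below every DKO animal for 3 of the 5 members, and for 451 of the 16626 genes (2.71%). Because the members were chosen with earlier results of these data known, these places, medians and shares only describe them.

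DKO_EP against DKO gave 0 called genes (0%) with 449 at an unadjusted p under 0.05 and no member among them, and limma-voom gave 0. Its log2 fold changes were -2.62 for Pbsn, -2.73 for Msmb, -2.90 for Defb50 and -0.50 for Tgm4, with SE of 1.35 to 1.75. DKO_EE against DKO_EP gave 0 called genes (0%) by limma and by limma-voom, with 593 at an unadjusted p under 0.05. Pbsn (-3.23, SE 1.35) and Tgm4 (-3.43, SE 1.55) were the members among those 593, while Msmb differed by -2.56 (SE 1.37) and Defb50 by -2.07 (SE 1.75). Both comparisons with DKO share its 4 animals, and both with DKO_EE share that group's.

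Other measures moved with these differences. Over the 10 skeletal muscle genes the mean log2 value was 8.20 to 12.87 in DKO animals, 2.30 to 5.30 in DKO_EE animals and 2.47 to 12.87 in DKO_EP animals, so this marker list also separated DKO from DKO_EE. With that mean as a covariate the difference of DKO_EE from DKO was -4.78 for Pbsn (SE 1.80), -5.05 for Msmb (SE 1.89), -3.71 for Defb50 (SE 2.34) and -1.93 for Tgm4 (SE 1.92). With identifier letters as a covariate it was -2.56 for Pbsn (SE 1.83), -2.59 for Msmb (SE 2.01), -3.60 for Defb50 (SE 2.86) and -0.50 for Tgm4 (SE 2.18), and the DKO level then rests on animal 4 alone. That DKO animal had the lowest Pbsn, Msmb, Defb50 and Tgm4 values of its group. Under the same covariate the difference of DKO_EP from DKO was 0.67 for Pbsn (SE 1.83) and 2.94 for Tgm4 (SE 2.18), both above 0. Genotype and identifier letters can hardly be told apart at 12 weeks.

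When all 11 groups entered one fit, DKO_EE against DKO passed the threshold for 3 members, with limma adjusted p-values of 2.28e-05 for Pbsn, 6.22e-05 for Msmb and 0.00914 for Defb50. The fold changes are the same as above. Of the 8 groups outside 12 weeks, Pbsn has no spread in 7, Msmb in 8 and Defb50 in 5. Such groups add animals without spread, and the standard errors (0.75 for Pbsn and Msmb) are smaller than those at 12 weeks alone.

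The other genes of prostate secretion did not move as one. Of the 11 listed genes in the table (Sbp, Sbpl, Spink1, Azgp1, Wfdc15b, Acpp, Klk1, Pigr, Agr2, Pip and Qsox1), 0 passed the test in any of the 3 comparisons at 12 weeks. The same held for all 16626 genes tested, so these counts do not show whether the 11 moved together. Among the 11, Azgp1, which encodes zinc-alpha-2-glycoprotein, had the smallest p for DKO_EE against DKO, with a difference of -2.59 (SE 1.35; limma adjusted p = 0.975). Sbp, which encodes spermine-binding protein, reached 14.19 in DKO animal 1 and 14.94 in DKO_EP animal 1 but 1.11 in DKO animal 4 and 0.00 in DKO_EP animal 3. In DKO_EE animals 1 to 4 Sbp was 6.42, 0.00, 0.93 and 0.00. Over the 12 animals Sbp correlated with Pbsn at 0.68, Msmb at 0.77, Defb50 at 0.71 and Tgm4 at 0.36. Sbp and Sbpl are related genes, and whether reads were divided between them was not tested. Averaged over the 11 genes, DKO animals had 7.33 ± 1.76, DKO_EP animals 7.22 ± 1.55 and DKO_EE animals 5.68 ± 0.29 (SD, n = 4 each).

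Among the members, Pbsn, Msmb and Defb50 rose and fell over nearly the same animals. Over the 12 animals, as a description across genotypes that share these libraries, the Pearson correlation of log2 values was 0.97 for Pbsn with Msmb, 0.95 for Msmb with Defb50 and 0.90 for Pbsn with Defb50. Tgm4 correlated at 0.85 with Pbsn, 0.71 with Msmb and 0.66 with Defb50. Svs2 stood apart, with correlations of -0.01 to 0.23 with the other 4.

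The genes most like each member were taken as the 3 with the highest Pearson correlation over the 12 animals, among 15427 genes above 0 in at least 8 of them. For Pbsn these were Msmb, Hddc3 (0.928) and Tcaf2 (0.921), and for Msmb they were Pbsn, Defb50 and Tcaf2 (0.940). For Tgm4 they were Tcaf3 (0.963), Fbxl22 (0.926) and Pcp4l1 (0.922). The Tcaf genes encode factors that associate with the cold-sensing channel TRPM8. For Defb50 they included Tcaf2 (0.956) and Msmb (0.950).

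The androgen-response genes Tmprss2 and Fkbp5 differed by -0.05 (SE 0.33) and -0.07 (SE 0.27) between DKO_EE and DKO, and Foxa1, a pioneer factor of luminal cells, by -0.01 (SE 0.20). The mean over 17 listed androgen receptor and response genes was 9.76 to 9.83 in DKO animals, 9.37 to 9.67 in DKO_EE and 9.23 to 9.96 in DKO_EP. For that mean DKO_EE lay below DKO without overlap, and single genes of the list went either way. Zbtb16 was 9.22 to 10.4 in DKO animals and 8.1 to 9.13 in DKO_EE animals. Steap4 was 9.86 to 10.46 in DKO animals and 10.38 to 10.95 in DKO_EE animals. The mean of the 17 genes correlated with Pbsn at 0.67, with Msmb at 0.77, with Defb50 at 0.87 and with Tgm4 at 0.32 over the 12 animals. The luminal mean correlated with Pbsn at -0.07 and with Defb50 at -0.32 over the 12 animals, while the mean of 6 proliferation genes correlated with them at -0.79 and -0.58. Across Pbsn, Msmb, Tgm4 and Defb50 the skeletal muscle mean correlated at 0.52 to 0.66 and the smooth muscle mean at 0.24 to 0.79. With the luminal mean as a covariate the difference of DKO_EE from DKO was -6.03 for Pbsn (SE 1.36) and -5.56 for Msmb (SE 1.30).

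DKO_EP animal 3 combined several of these features. It had no read of Pbsn, Msmb, Defb50 and Svs2 and a Tgm4 value of 1.64. Its mean over 8 basal genes was the highest of the 12 animals at 11.23, with Krt5, a basal keratin, at 11.15. Its luminal mean of 11.23 and its urothelial mean of 6.03 lay within the ranges of the other animals. Single genes of both lists lay at the extremes in either direction. Of the 12 animals, it had the highest luminal Krt8 (13.75) and the lowest luminal Ehf (11.51). It also had the highest urothelial Krt20 (11.86) and the lowest urothelial Upk3a (0.00). Its mean over the androgen receptor and response genes was the lowest at 9.23. The part of cell composition in its missing secretory transcripts was not tested.

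Svs2 had the widest range of the 5 members over the 12 animals. Its log2 values were 6.26, 4.85, 6.86 and 7.84 in DKO, 1.03, 9.01, 10.19 and 16.83 in DKO_EE, and 10.06, 19.12, 0.00 and 10.17 in DKO_EP. All 4 DKO animals lay inside the range of both other genotypes. The differences of DKO_EE and DKO_EP from DKO were 2.82 and 3.38 (SE 3.66 each), and that of DKO_EE from DKO_EP was -0.57 (SE 3.66), none of which passed the limma test. Without DKO_EP animal 2 and DKO_EE animal 4, whose Svs2 exceeded 1% of reads, the difference of DKO_EE from DKO_EP was 0.00. Without the animals rich in Ttn, DKO_EP differed from DKO by -0.83.

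Other transcripts of the seminal vesicle were present in the same animals but not in a fixed ratio to Svs2. The genes most like Svs2 were Cdo1 (0.914), which encodes cysteine dioxygenase, 9530003J23Rik (0.909) and Pate4 (0.899), a seminal vesicle secretory protein. The mean of the 10 other seminal vesicle genes correlated with Svs2 at 0.85, and with Pbsn, Msmb, Tgm4 and Defb50 at 0.23 to 0.39. Svs4 and Svs5, which encode further secretory proteins of the gland, are named here after their values were seen. Svs2 exceeded Svs4 by 6.65 in DKO_EE animal 4 and 5.49 in DKO_EP animal 2. In DKO animals 1 and 3 the difference of Svs2 from Svs4 was -5.72 and -5.92, and in DKO_EP animal 4 it was -3.60. Over the 12 animals Svs2 lay above Svs4 in DKO_EE animals 2 to 4 and DKO_EP animals 1 and 2, both were at 0.00 in DKO_EP animal 3, and Svs2 lay below Svs4 in the other 6. The 10 genes took, with Svs2, 7.99% of the reads of DKO_EP animal 2 and 1.76% of those of DKO_EE animal 4. Svs3a and Svs3b in that list are near-identical copies. Of the 10 genes, 0 passed the limma test in any comparison at 12 weeks, where 0 of all 16626 genes passed.

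**Figure D2:**
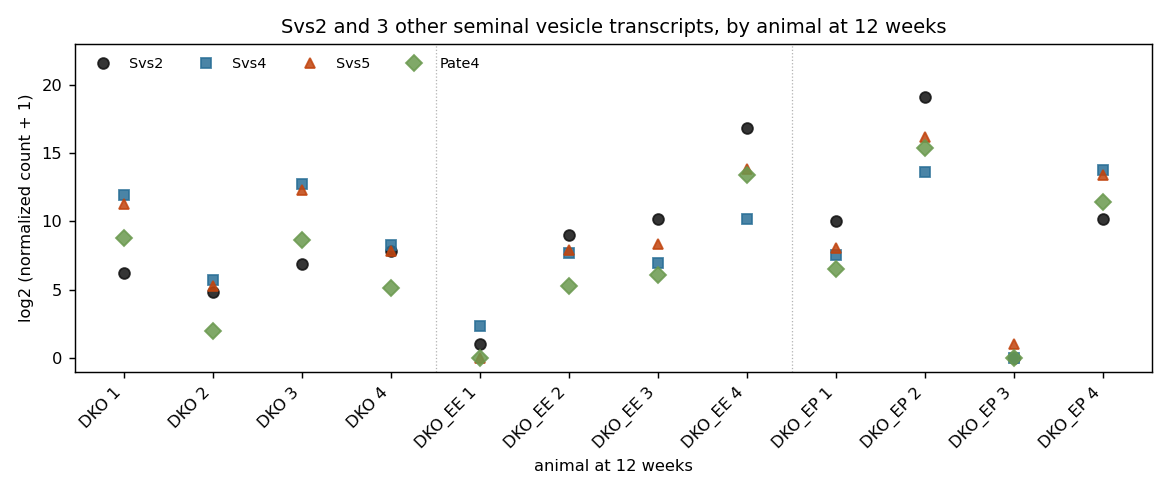
Log2 normalized counts (y axis) of Svs2, Svs4, Svs5 and Pate4 in each of the 12 animals at 12 weeks (x axis), with 1 symbol per gene. Svs2 is the highest of the 4 genes in DKO_EE animals 2 to 4 and DKO_EP animals 1 and 2 and the lowest in DKO animals 1 and 3 and DKO_EP animal 4, and all 4 are at or near 0 in DKO_EP animal 3.

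In the endstage groups and the castrated TKO groups the prostate secretory transcripts were absent or nearly so, whatever the genotype and whether the mice had been castrated. Msmb had 0 reads in 42 of 42 libraries outside 12 weeks, among 259074607 reads, and Pbsn had 1 read in 1 of those libraries. Defb50 had 6 reads in 4 libraries. Tgm4 was above 0 in 33 of the 42 libraries but never exceeded 10 reads in one. Svs2 was seen in 17 of 20 intact endstage libraries, 2 of 14 castrated DKO, DKO_EE and DKO_EP libraries and 1 of 8 TKO libraries.

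**Figure D3:**
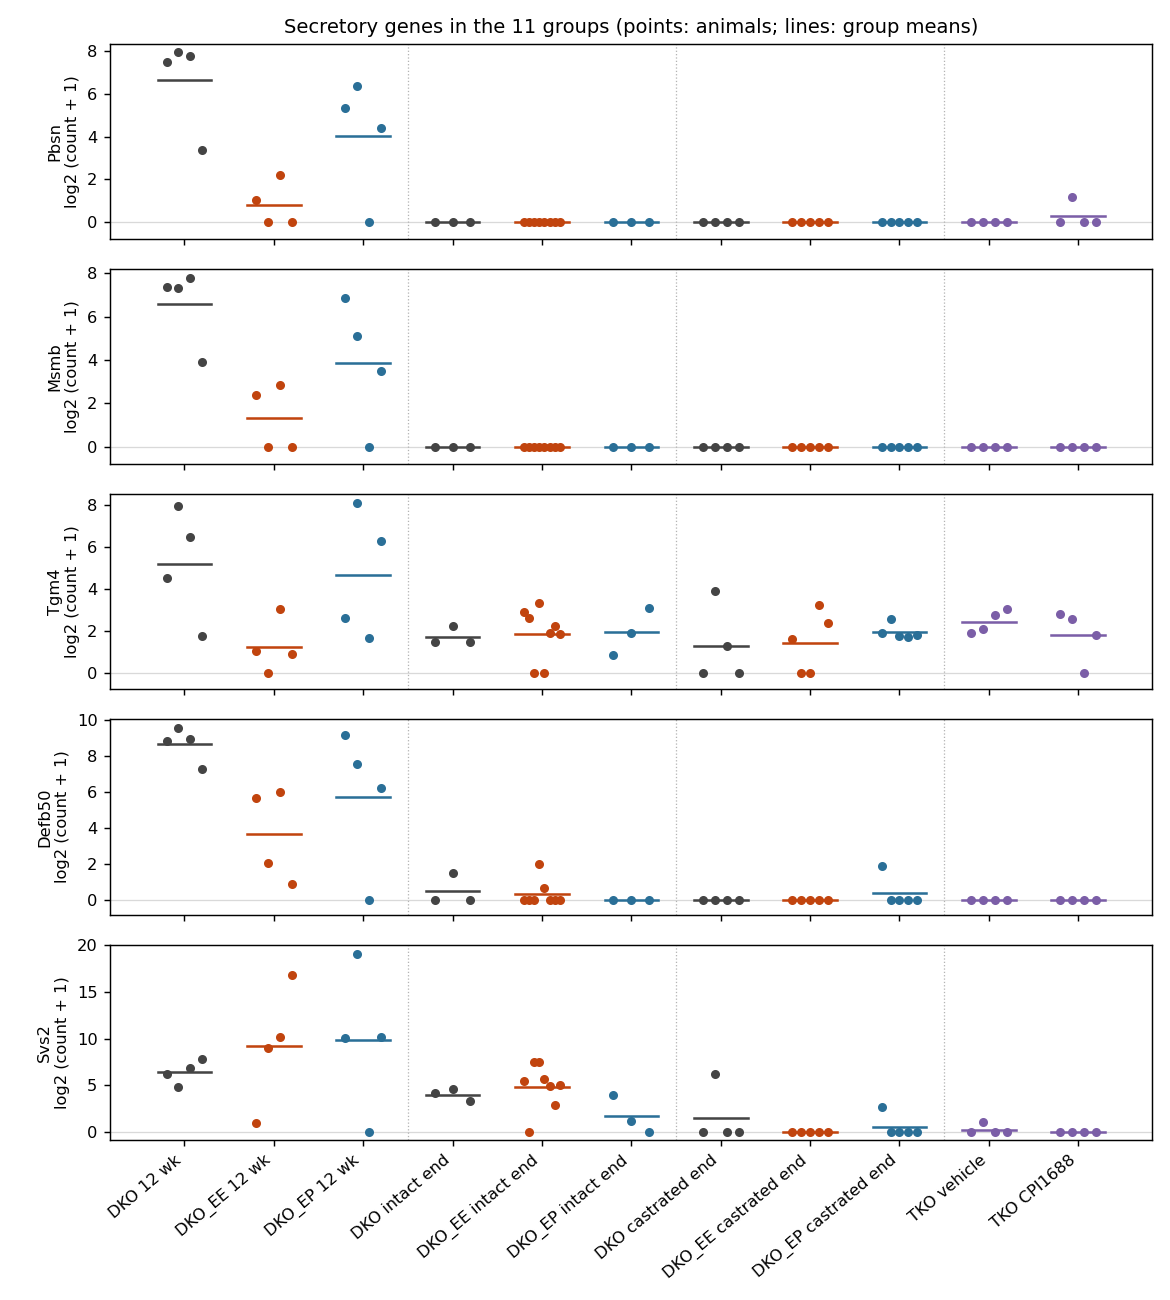
Log2 normalized counts (y axis) of the 5 genes in the 48 animals, in 11 groups along the x axis, with 1 point per animal and a line at each group mean. Pbsn, Msmb and Defb50 are high only among the 12-week groups, Tgm4 holds a low level in most groups, and Svs2 is above 0 in most intact and few castrated animals.

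In DKO, 4 of the 5 members were lower in intact endstage tumours than at 12 weeks by limma, where 18.7% of all genes were called lower. The log2 fold changes were -6.65 for Pbsn (SE 0.81; limma adjusted p = 1.23e-07), -6.60 for Msmb (SE 0.81; limma adjusted p = 1.43e-07), -8.13 for Defb50 (SE 1.09; limma adjusted p = 5.11e-07) and -3.45 for Tgm4 (SE 1.18; limma adjusted p = 0.0196). The Tgm4 call was lost without DKO 12-week animal 2 (-2.52, adjusted p = 0.105) or animal 3 (-3.02, 0.0627), without intact endstage animal 1 (-3.32, 0.0579) or animal 3 (-3.33, 0.0604), and with limma-voom (-3.36, 0.0519). Svs2 did not pass the test, with a mean of 6.45 ± 1.25 at 12 weeks and 4.02 ± 0.65 at endstage (SD, n = 4 and n = 3). The median over the members was -6.60 against -0.04 over all genes. Against a floor of 3 reads over the group, Pbsn was at least 161.6-fold and Msmb at least 137.5-fold higher at 12 weeks in RPM. Groups at 0 for a gene add no spread to the fit that all 11 groups share, so the standard errors of Pbsn and Msmb mix groups with and without variation.

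In castrated DKO tumours 4 of the 5 members were lower than in the same 12-week animals, beside 17.8% of all genes. These were Pbsn (-6.65, SE 0.75), Msmb (-6.60, SE 0.75), Defb50 (-8.63, SE 1.01) and Tgm4 (-3.88, SE 1.09), with limma adjusted p-values of 3.12e-09, 3.94e-09, 8.28e-09 and 0.00541. Defb50 was at least 444.8-fold higher at 12 weeks, against the same floor. Svs2 had 53 reads in animal 2 (log2 6.21), the oldest mouse at 99 weeks, and none in the other 3. These 4 tumours also differed in marker lists. Their mean over 12 neuroendocrine genes ran from 2.78 to 9.85 and that over 8 basal genes from 3.68 to 12.15. The part of age or tumour type in the Svs2 reads was not tested. The Svs2 difference of -4.90 (SE 2.25; limma adjusted p = 0.0873) became -6.45 (adjusted p = 0.0243) without animal 2. It also passed when the 12-week animals rich in Svs2 were left out of the shared fit (-4.90, adjusted p = 0.0218).

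In DKO_EE fewer members passed. In intact DKO_EE tumours Defb50 was the 1 member called lower (-3.33, SE 0.87; limma adjusted p = 0.00174), beside 27.0% of all genes. With libraries under 10% Lars2 alone, the Defb50 change was -3.66 and it was still the 1 member called. Pbsn (-0.81, SE 0.65) and Msmb (-1.31, SE 0.65) went from few reads to none and did not pass. Svs2 differed by -4.38 (SE 1.95; limma adjusted p = 0.0577) and passed without DKO_EE 12-week animal 1 (-7.12, adjusted p = 0.00296). It also passed without intact DKO_EE animal 3 or animal 4 (-4.76 each, adjusted p = 0.0454 and 0.0434). Msmb passed without DKO_EE 12-week animal 2 or animal 4 (-1.75 each, adjusted p = 0.0412 and 0.0398). The median over the members was -1.31 against -0.07 over all genes in either endstage setting. In castrated DKO_EE tumours 2 members were called lower, beside 29.3% of all genes. These were Defb50 (-3.66, SE 0.96; limma adjusted p = 0.00146) and Svs2 (-9.27, SE 2.13; limma adjusted p = 0.000395), which had 0 reads in all 5 castrated animals. The Svs2 call was lost with limma-voom (-9.97, adjusted p = 0.132).

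In DKO_EP, intact endstage tumours had 4 members called lower, beside 22.9% of all genes. They were Pbsn (-4.04, SE 0.81), Msmb (-3.87, SE 0.81), Defb50 (-5.73, SE 1.09) and Svs2 (-8.12, SE 2.43), with limma adjusted p-values of 0.000118, 0.000197, 6.38e-05 and 0.00644. All of these endstage libraries are rich in Lars2, whose part in the differences cannot be told apart from the group. The Svs2 call was lost without DKO_EP 12-week animal 2 (-5.03, adjusted p = 0.0671), without the animals rich in Ttn (-3.32, 0.309) and with limma-voom (-7.83, 0.354). Tgm4 missed the threshold (-2.74, SE 1.18; limma adjusted p = 0.0562) and passed without DKO_EP 12-week animal 1 (-3.42, 0.0246) or animal 3 (-3.75, 0.0113).

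Castrated DKO_EP tumours had all 5 members called lower than the same 12-week animals, beside 28.8% of all genes. The log2 fold changes were -4.04 for Pbsn, -3.87 for Msmb, -2.73 for Tgm4, -5.35 for Defb50 and -9.29 for Svs2, with limma adjusted p-values of 1.08e-05, 2.05e-05, 0.0247, 1.44e-05 and 0.000382. The Tgm4 call was lost without DKO_EP 12-week animal 2 (-1.58, adjusted p = 0.208) or animal 4 (-2.18, 0.101), with limma-voom (-2.62, 0.0642) and without the animals rich in Ttn (-0.18, 0.898). The Svs2 call was lost with limma-voom (-9.43, 0.149) and without the animals rich in Ttn (-4.49, 0.109).

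Tgm4 was the prostate member that kept a low level outside 12 weeks. Its values were 1.48, 2.22 and 1.48 in intact DKO, 0.82, 1.90 and 3.09 in intact DKO_EP, and from 0.00 through a median of 2.05 to 3.31 in the 8 intact DKO_EE animals. After castration they were 0.00, 3.88, 1.28 and 0.00 in DKO, 1.59, 0.00, 0.00, 3.24 and 2.37 in DKO_EE, and 1.91, 2.56, 1.73, 1.72 and 1.79 in DKO_EP. In TKO they were 1.88, 2.10, 2.74 and 3.03 with vehicle and 2.78, 2.55, 0.00 and 1.80 with CPI1688. These are 0 to 10 reads per library, and neighbouring groups overlapped throughout the order of means. The lowest mean of the 11 groups was that of DKO_EE at 12 weeks (1.24), and no fold change between stages is drawn from such values in DKO_EE. Of the 4 other transglutaminase genes in the table (Tgm1, Tgm2, Tgm3 and Tgm5), 0 were called in either direction in DKO intact tumours against 12 weeks.

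Defb50 reads outside 12 weeks came from intact DKO animal 2 (log2 1.50, 2 reads), intact DKO_EE animals 4 and 5 (1.99 and 0.68, 1 read each) and castrated DKO_EP animal 1 (1.91, 2 reads). The ratio of the DKO level at 12 weeks to the 2 reads of intact DKO tumours was 673.6, with a counting interval of 186.5 to 5562.4. The remaining 32 animals outside 12 weeks had no read.

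Svs2 had the highest mean of the members in intact DKO (4.02) and intact DKO_EE tumours (4.89). In intact DKO_EP its mean was 1.71, from 17 reads, below that of Tgm4 (1.93). In these intact tumours Svs2 had log2 values of 4.16, 4.58 and 3.31 in DKO, and 3.94, 1.20 and 0.00 in DKO_EP. It ran from 0.00 through a median of 5.25 to 7.54 in the 8 DKO_EE animals. In castrated animals it was 2.71 in DKO_EP animal 1, 6.21 in DKO animal 2 and 0.00 in the other 12. In TKO it was 1.07 in vehicle animal 2, from a single read, and 0.00 in the other 7. Castrated and intact groups were not compared by a test. In the 6 intact animals with a pair of tumour pieces, Svs2 differed between pieces by 0.08 to 2.67, with 89 reads in the DP-LP piece and 7 in the AP piece of DKO_EE animal 8. Pbsn and Msmb had no read in any of these pieces.

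Within the endstage settings and in castrated TKO mice no genotype or drug comparison called a member. Pbsn and Msmb could not be tested there apart from Pbsn in TKO, since no animal had a read, and Defb50 was untestable in TKO. The fits called 1.66% of genes between intact DKO_EE and DKO, and 0 genes (0%) between intact DKO_EP and DKO, with 965 at an unadjusted p under 0.05 and 0 by limma-voom. They called 7.72% between castrated DKO_EE and DKO and 0.0302% between castrated DKO_EP and DKO. CPI1688 against vehicle in TKO gave 0 genes (0%), with 337 at an unadjusted p under 0.05 and 0 by limma-voom. No member had an unadjusted p under 0.05 in any of these 5 comparisons.

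The change of the genotype difference between stages passed for Pbsn and Msmb in DKO_EE. The interaction, taken as the difference of DKO_EE from DKO at endstage minus that at 12 weeks, was 5.84 for Pbsn (SE 1.03; limma adjusted p = 0.00404) and 5.28 for Msmb (SE 1.03; limma adjusted p = 0.0116) with intact tumours, where 0.125% of genes were called. With castrated tumours the same 5.84 and 5.28 had adjusted p-values of 0.00302 and 0.00563, beside 0.793% of genes called. Since both genes were at 0 in all endstage animals of these genotypes, the interaction is the 12-week difference itself, tested with a spread that includes groups at 0. With limma-voom the adjusted p-values were 0.0909 and 0.0934 for intact and 0.0808 and 0.0824 for castrated tumours. Defb50 missed the threshold with intact tumours (4.80; limma adjusted p = 0.154) and with castrated tumours (4.97, SE 1.39; 0.0625), and the castrated value passed without DKO_EE 12-week animal 1 (5.64, 0.0452) or animal 3 (5.76, 0.0327). With an offset of 8 both passed (adjusted p = 0.0437 and 0.0141). For DKO_EP the interaction called no member with intact tumours (0.00596% of genes) or castrated tumours (0 genes, 0%, with 1449 at an unadjusted p under 0.05 and 0 by limma-voom).

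Lower values at endstage extended to other secretory and luminal genes. In intact DKO tumours against 12 weeks, 9 of the 11 other prostate secretory genes fell and 1 rose. Azgp1 fell by 4.69, Agr2, which encodes a secretory pathway protein, by 7.17, Pigr, the polymeric immunoglobulin receptor, by 6.01, and Acpp, prostatic acid phosphatase, by 4.33 (limma adjusted p from 0.000216 to 0.00162), whereas Klk1, a kallikrein, rose by 4.06 (limma adjusted p = 0.00925). Of the 10 other seminal vesicle genes 4 fell, namely Svs4, Svs5, Svs6 and Spinkl. Of the 16 luminal genes 9 fell and none rose. Tmprss2 had a log2 change of -5.53 (SE 1.19; limma adjusted p = 0.000358). These counts of genes that fell stand beside 18.7% of all genes. Of the 12 neuroendocrine genes 11 rose, beside 18.0% of all genes higher at endstage. All 10 skeletal muscle genes fell, and all 6 proliferation genes rose. The median log2 change was -4.56 over the 11 prostate secretory genes, -2.75 over the 10 seminal vesicle genes, -1.46 over the luminal genes and -8.09 over the skeletal muscle genes, against -0.04 over all genes. These marker lists moved with the members, and their part in the members' lower values was not tested.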

How the data were processed

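Total RNA of mouse prostate tumour tissue was sequenced after ribosomal RNA depletion, per the labels' protocols. The submitters' processing notes name FastQC, STAR, RSEM, limma and DESeq2 and the builds GRCm38 and mm10, without versions or roles. The authors deposited log2 values of a normalized count plus 1 for 16772 genes, and strand handling is not given in the sources used here. Of the table's columns, 2 matched no sample and were not used. Values divided by the step of a library were whole reads for 100% of values (within 0.05), and these reads were used for totals and limma-voom. Intervals and floors (3 reads) cover counting error only, at 95% (exact Poisson).

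Libraries of one animal were averaged on the log2 scale (6 animals with 2 pieces), leaving 48 animals, each 1 replicate. No libraries were alike within counting error. Tests used limma 3.58.1 in R 4.3.3 (lmFit, contrasts.fit, eBayes with trend), with Benjamini-Hochberg adjustment over all genes with any spread and a threshold of 0.05. Genotypes were compared within a setting, and stages and interactions in 1 fit of all 11 groups, whose comparisons share the 12-week animals. The labels share no replicate numbers between groups, so no pairing was made. The fit was tested on simulated data. Members and gene lists were chosen with earlier results of these data known. Named genes are the members, fixed genes (Ezh2, Fkbp5, Tmprss2, Foxa1, Hoxb13, Krt8, Krt5, Chga, Ttn, Lars2), up to 4 genes of a list with the smallest p, and the 3 genes most like each member; some genes that this rule names are not reported here. Sbp, Svs4, Svs5, Klk1, Ehf, Krt20, Upk3a, Zbtb16 and Steap4 were named after their values were seen. Alternatives were a low-value filter, an offset of 8, quantile normalization, limma-voom, 1 library per animal, all groups in 1 fit, covariates and leaving out each animal. Leaving out animals or libraries by Svs2, Ttn or Lars2 share, and each intact DKO_EE animal, was added after seeing the data. Promoter sequences are from RefSeq (GRCm38.p6).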

Additional observations from a re-analysis of the deposited data

Results flagged for a closer look

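Of 28 sets of 1 member in 1 group of 4 to 8 animals, 9 had a highest or lowest animal that stood apart from the rest by Dixon's criterion. Chance gives about 1 in 20 for values that vary, which does not apply to 5 of the 9, where every other animal was at 0. DKO animal 4 at 12 weeks was low for Pbsn (3.37) and Msmb (3.90), and it also had the lowest Tgm4 and Defb50 values of its group. DKO castrated animal 2, the mouse aged 99 weeks, was high for Svs2 (6.21). DKO_EP castrated animal 1 was high for Svs2 (2.71) and Defb50 (1.91), from 4 and 2 reads. DKO_EP castrated animal 2 was high for Tgm4 (2.56), from 4 reads. Single reads set the other 3 apart, Defb50 in intact DKO_EE animal 4 (1.99), Pbsn in TKO animal 2 given CPI1688 (1.15) and Svs2 in TKO vehicle animal 2 (1.07).

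The difference of DKO_EE from DKO at endstage minus that at 12 weeks passed limma for Pbsn (5.84 with intact and 5.84 with castrated tumours) and Msmb (5.28 with each). Both genes were at 0 in every endstage animal of these genotypes, so these values restate the 12-week differences, which did not pass (adjusted p = 0.975), against a spread that includes groups at 0. With limma-voom none of the 4 passed (adjusted p from 0.0808 to 0.0934).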

How the results depend on the processing

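Of 824 fold changes recomputed for the members under other settings, 771 kept their direction and side of the threshold, 21 newly passed, 20 no longer passed and 12 changed direction. All 12 were 12-week differences that did not pass the test. For Tgm4 in DKO_EP against DKO they were 0.30 with the muscle mean and 2.94 with identifier letters as covariate. They were also 0.42 without DKO animal 2, 0.18 without DKO_EP animal 1 and 0.51 without DKO_EP animal 3. Over all left-out animals this Tgm4 difference ran from -1.65 to 0.51. For Svs2 in DKO_EE against DKO_EP they were 2.21 with the muscle mean, and 0.00 and 4.24 without the animals rich in Svs2 or Ttn. They were also 2.18 without DKO_EE animal 1 and 2.52 without DKO_EP animal 2. Over all left-out animals this Svs2 difference ran from -3.85 to 2.52. Svs2 in DKO_EP against DKO was -0.83 without the animals rich in Ttn, and Pbsn was 0.67 with identifier letters.

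The count of members called lower in intact DKO_EE was 2 with an offset of 8 and without the animals rich in Svs2 or in Ttn, and 1 to 2 without single animals. It was 1 in castrated DKO_EE with limma-voom, and 3 in castrated DKO_EP with limma-voom and without the animals rich in Ttn. Interactions for DKO_EE called 0 members with limma-voom, and those for DKO_EP called 1 (intact) and 2 (castrated) without the animals rich in Ttn. With all 11 groups in 1 fit, 3 members were called between DKO_EE and DKO at 12 weeks, beside 84 genes. Without the lowest 25% of genes by mean value, no member remained in the fit of all 11 groups, so no count was made there. Some members remained in the 12-week fit under that filter, and their fold changes kept direction and side of the threshold. Keeping only libraries under 10% Lars2 left no intact DKO_EP animal, and that comparison was not run. No paired analysis was possible because the groups share no replicate numbers. Depth limits the endstage values, where a single read moves a log2 value from 0 to 1 or more.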
